A study of Mus musculus with 6 samples.

Results

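The genes described here carry a Wnt signal from the cell surface to the nucleus, and 38 of them were followed in newborn mouse osteoblasts and chondrocytes. They were chosen by name as the Frizzled and other Wnt receptors (16 genes), the R-spondin system (9) and the machinery that releases Wnt ligands (2). The others were the nuclear effectors (5) and the feedback genes, listed with the scaffold Axin1 (6). All 38 were found among the 23364 gene symbols of the deposited table, as 59 of its 31055 RefSeq transcripts. The osteoblast group held 3 libraries of C57BL/6 calvarial cells, from the skull roof, released with Liberase and sorted for green fluorescent protein (GFP), with the genotype given as Sp7 positive. The chondrocyte group held 3 libraries of C57BL/6 wild-type rib cartilage cells, released with Pronase and Collagenase D. Both came from animals at postnatal day 1, and what drives the GFP beyond the name Sp7-GFP, and whether animals were pooled, are not given in the sources used here. Cell type, body site, sorting, genotype and enzyme all differ together between the groups, so they cannot be told apart. The labels do not say that replicates were separate animals, so p-values measure the spread between these libraries.

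Wnt proteins bind Frizzled receptors together with the co-receptors Lrp5 and Lrp6, which stops the destruction complex of Axin, Apc and Gsk3 from degrading beta-catenin. Beta-catenin then enters the nucleus and works with the DNA-binding factors of the TCF/LEF family, and among its best-known targets are Axin2, Nkd1, Notum and Apcdd1, which damp the pathway. R-spondins bind Lgr receptors and remove the ubiquitin ligases Znrf3 and Rnf43, which otherwise clear Frizzled from the surface. In the skeleton this canonical branch promotes osteoblast formation from progenitors and restrains the chondrocyte fate, while Ror1, Ror2 and Ryk serve branches that do not need beta-catenin.

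The libraries matched their labels. In osteoblasts Sp7 lay at 108 to 134 RPKM, the read count scaled by transcript length and by the library's reads, while chondrocytes had 0.911 to 2.31 RPKM, and the 10 chondrocyte markers listed summed to 254 to 295 RPKM against 34943 to 61207 RPKM. From the steps of the low values, 1 RPKM in a transcript of 2 kb stood for about 53.8 to 71.7 reads. Among the chondrocyte libraries replicate 2 had the highest sum of chondrocyte markers (61207 RPKM against 48169 and 34943 RPKM). Matn1 was at 46.6 RPKM in it against 3.12 and 3.10 RPKM, while Sox9 and Comp were highest in replicate 1. Chondrocyte replicate 3 stood apart in other markers. Its 10 osteoblast markers, which include the type I collagens, summed to 14390 RPKM against 4305 and 4714 RPKM in the other two, and its 10 perichondrium, tendon and fibroblast markers to 4965 RPKM against 1382 and 1691 RPKM, while Sp7 in it was 1.10 RPKM. In the osteoblast group these 10 markers summed to 2566 to 3782 RPKM, inside the range of the chondrocyte libraries. Of the 9 tested, 6 were called higher in osteoblasts, such as Dpt (13.5 to 41.0 RPKM against 0.127 to 0.272) and Cd34 (14.2 to 25.7 RPKM against 0.552 to 1.77), and 2 higher in chondrocytes, Tnmd and Thbs4. Genes known to respond to tissue dissociation (12) summed to 1703 to 2537 RPKM in osteoblasts and 1382 to 2393 RPKM in chondrocytes, with 6 called higher in osteoblasts, such as Fos (608 to 861 RPKM against 256 to 372), and 2 in chondrocytes, Ier2 and Atf3. Endothelial markers (10) summed to at most 9.25 RPKM and lymphoid markers (10) to at most 0.784 RPKM in any library, with Cd3e, Cd3d and Ms4a1 at the floor of the table in all 6. Myeloid and osteoclast markers (12 in the table) summed to 221 to 237 RPKM in osteoblasts and 52.2 to 176 RPKM in chondrocytes, of which Ctsk made up most in each library. Of the 8 tested, 7 were called higher in osteoblasts, such as Mmp9 (3.18 to 5.06 RPKM against 0.0285 to 0.186), and 1 in chondrocytes, Cd14. Erythroid markers (9 in the table) summed to 29.0 to 64.2 RPKM in osteoblasts and 5.45 to 29.1 RPKM in chondrocytes. Neural and Schwann cell markers (10) summed to 8.65 to 10.8 RPKM against 1.77 to 3.96 RPKM. Skeletal muscle markers (12) summed to 1.73 to 1.94 RPKM in osteoblasts and 9.84 to 41.1 RPKM in chondrocytes. Most of the latter was Tnnt3 (9.16 to 40.1 RPKM), the 1 tested, which was called higher in chondrocytes. Keratinocyte markers (8) summed to 2.34 to 2.55 RPKM against 0.875 to 1.28 RPKM. Over all tested genes 55.5% were called higher in osteoblasts and 13.5% in chondrocytes, the background for the marker counts here. The part of these other cells and of dissociation in the results below was not tested.

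Genes with at least 1 RPKM in at least 3 libraries were tested with limma on log2(RPKM + 1), and those with p under 0.05 after Benjamini-Hochberg adjustment over all 11218 tested genes are termed called. Differences below are osteoblast minus chondrocyte on that log2 scale, which understates the change of low genes, and folds are ratios of mean RPKM. Of the 38 members 32 were tested. Of these, 18 were higher in osteoblasts (56.3%, against 55.5% of all tested genes), 6 were higher in chondrocytes (18.8%, against 13.5%) and 8 were not called, where 69.0% of all tested genes were called in either direction. The RPKM of the groups did not overlap for 23 of the 32 (71.9%, against 75.6% of all tested genes). Both shares lie near the background, so the counts say little about these genes as a set, and the pattern is in which members moved.

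The scaling of the libraries bears on every small difference. The median over all tested genes was 0.43 in favour of osteoblasts, and the median over the 32 members was 0.57. The 50 most abundant genes took 24.6% to 25.6% of all RPKM in osteoblasts and 34.8% to 40.1% in chondrocytes. Under median-of-ratios scaling the median of all genes was 0.01 and that of the members 0.09. The members then counted 8 higher in osteoblasts (25.0%, against 30.4% of all genes) and 8 higher in chondrocytes (25.0%, against 31.0%), with 61.4% of all genes called in either direction. Called in the same direction as deposited and under each of 4 other scalings were 8 members on the osteoblast side (Fzd1, Fzd5, Lrp4, Porcn, Wls, Tcf7, Axin2 and Apcdd1) and 6 on the chondrocyte side (Fzd7, Fzd9, Rspo3, Lgr4, Lef1 and Tcf7l2). Tcf7 passed the filter through osteoblasts alone, which fixes its direction. The other 10 members called higher in osteoblasts had differences of 0.36 to 0.85 and are given below with the limit that scaling sets.

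**Figure D1:**
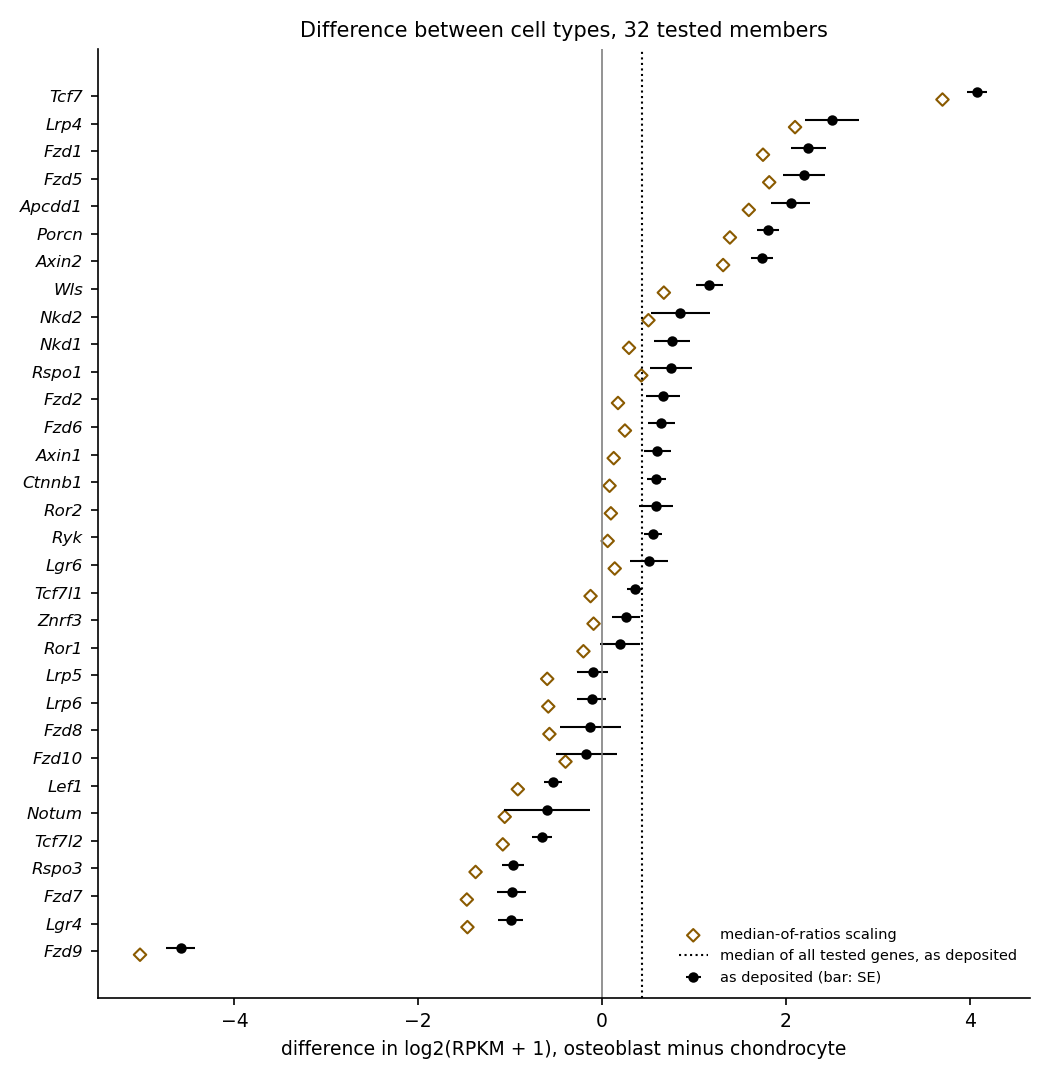
Difference in log2(RPKM + 1), osteoblast minus chondrocyte, for the 32 tested members, with black points and standard errors for the values as deposited and open diamonds after median-of-ratios scaling. Tcf7 (4.08) and Fzd9 (-4.59) lie at the ends, and the diamonds sit to the left of the points by about the median of all genes (0.43), drawn as a dotted line.

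The Frizzled family differed in which receptor was most abundant. Summed over Fzd1 to Fzd10, the receptors reached 159, 136 and 130 RPKM in the 3 osteoblast libraries and 209, 141 and 195 RPKM in the chondrocyte libraries. As deposited these ranges overlap (difference in log2 of the sum -0.34, exact permutation test, two-sided, p = 0.2, where 0.1 is the smallest p that 3 libraries against 3 allow). Under the other scalings this difference was larger, at -0.85 to -0.76 (exact permutation test, two-sided, p = 0.1 under each). Whether the summed level was higher in chondrocytes thus depended on the scaling. Fzd1 held 48.7% ± 2.52 of the sum in osteoblasts and 7.88% ± 2.04 in chondrocytes (SD, n = 3 each). Fzd9 held 2.20% ± 0.315 in osteoblasts and 54.5% ± 5.19 in chondrocytes. RPKM is per transcript length, so these shares compare levels between genes.

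**Figure D2:**
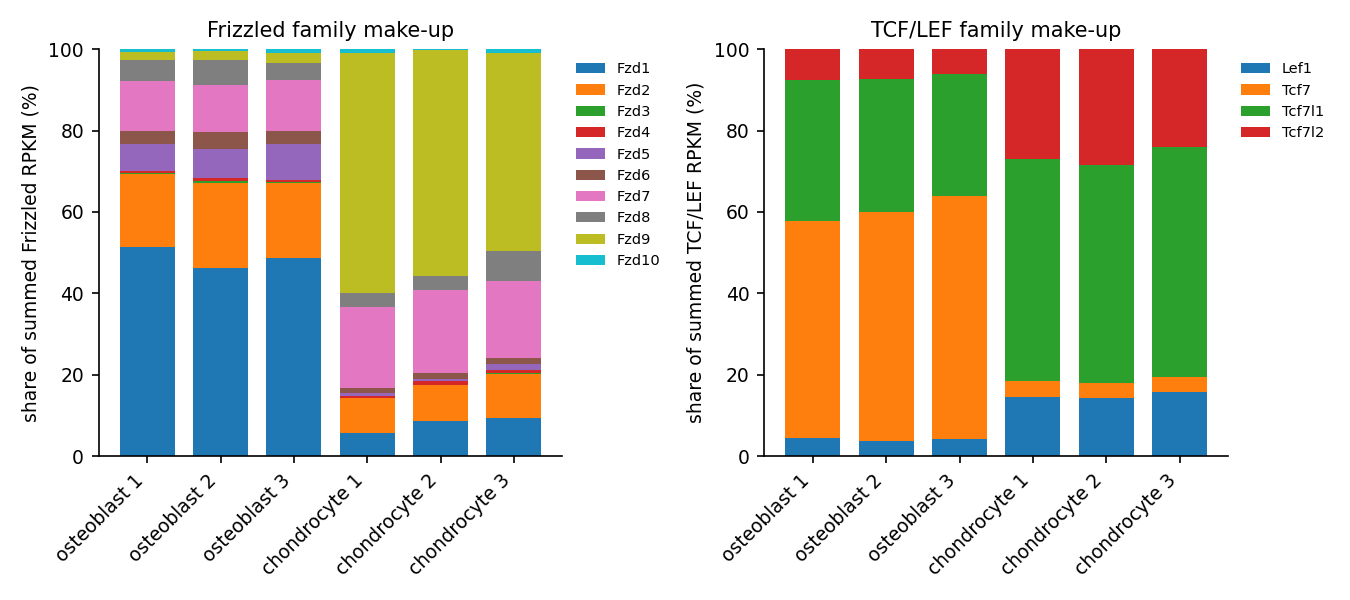
Share of the summed RPKM of the Frizzled family (left) and of the TCF/LEF family (right) taken by each gene, as stacked bars in percent for each of the 6 libraries. Fzd1 is the largest Frizzled part in each osteoblast library (46.3% to 51.3%) and Fzd9 in each chondrocyte library (48.8% to 59.0%), and Tcf7 takes 53.2% to 59.7% of TCF/LEF in osteoblasts against 3.45% to 3.80% in chondrocytes.

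Fzd9 showed the largest difference among the tested members on the log2(RPKM + 1) scale. By ratio of means Tcf7, 33.86-fold higher in osteoblasts, exceeded it. Fzd9 stood at 3.03, 2.94 and 3.30 RPKM in osteoblast replicates 1 to 3 and at 123, 78.3 and 94.9 RPKM in chondrocyte replicates 1 to 3. The groups were far apart and every chondrocyte library was high. The mean was 31.97-fold higher in chondrocytes (difference -4.59 ± 0.16 SE, limma adjusted p = 1.30e-06), rank 56 by size among the 11218 genes. Fzd7, a receptor expressed in many progenitor cells, also stood on the chondrocyte side. It was at 19.9, 15.9 and 16.3 RPKM in osteoblasts and 41.2, 28.5 and 36.8 RPKM in chondrocytes, 2.05-fold higher there without overlap (-0.98, limma adjusted p = 0.00105).

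Fzd1 and Fzd5 were the Frizzled genes that were higher in osteoblasts under each scaling. Fzd1 reached 81.6, 62.8 and 63.3 RPKM in osteoblasts and 11.6, 12.1 and 18.4 RPKM in chondrocytes. No library of one group came near the other, and the difference was 2.24 ± 0.19 SE (4.93-fold, limma adjusted p = 5.79e-05). Fzd5 stood at 10.5, 9.75 and 11.2 RPKM against 1.48, 0.809 and 2.54 RPKM, a difference of 2.19 (6.53-fold, limma adjusted p = 0.000147). In both genes chondrocyte replicate 3, the library with more type I collagen, was the highest chondrocyte library. Without it the differences were 2.44 for Fzd1 and 2.44 for Fzd5.

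Fzd2 and Fzd6 were called higher in osteoblasts by smaller amounts. Fzd2 was at 28.5, 28.4 and 24.0 RPKM against 17.9, 12.4 and 20.9 RPKM (0.66, limma adjusted p = 0.0143). It was not called without osteoblast replicate 1 or 2 (adjusted p 0.0535 and 0.0524), nor under any of the 4 scalings. Fzd6 was at 4.88, 5.57 and 4.19 RPKM against 2.94, 2.14 and 3.23 RPKM (0.64, limma adjusted p = 0.00614) and was called under 1 of the 4 scalings. In both genes the groups did not overlap, though their nearest libraries were close.

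The remaining Frizzled genes were not called or not tested. Fzd8 overlapped, at 8.15, 8.16 and 5.57 RPKM against 7.18, 4.85 and 14.0 RPKM (limma adjusted p = 0.745). Fzd10 was at 1.04, 0.734 and 1.13 RPKM against 2.13, 0.228 and 1.81 RPKM, so that chondrocyte replicate 2 lay below all others. Without that library Fzd10 was called higher in chondrocytes (-0.60, limma adjusted p = 0.00255). Fzd4, which is also the receptor for the ligand Norrin, was at 0.876, 0.949 and 0.643 RPKM against 0.774, 1.17 and 1.46 RPKM and overlapped. Fzd3 lay between 0.287 and 0.577 RPKM in all 6 libraries. Both missed the filter, and neither was called when no filter was used (adjusted p 0.241 and 0.109).

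Ordered by mean level in osteoblasts, Fzd1 (69.2 RPKM) led Fzd2 (27.0), Fzd7 (17.4), Fzd5 (10.5), Fzd8 (7.29), Fzd6 (4.88) and Fzd9 (3.09). The neighbours from Fzd1 down to Fzd5 did not overlap in their libraries. In chondrocytes the order was Fzd9 (98.7 RPKM), Fzd7 (35.5), Fzd2 (17.0), Fzd1 (14.1) and Fzd8 (8.68). There Fzd9 stood clear of Fzd7, and Fzd7 of Fzd2, while Fzd2, Fzd1 and Fzd8 overlapped.

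**Figure D3:**
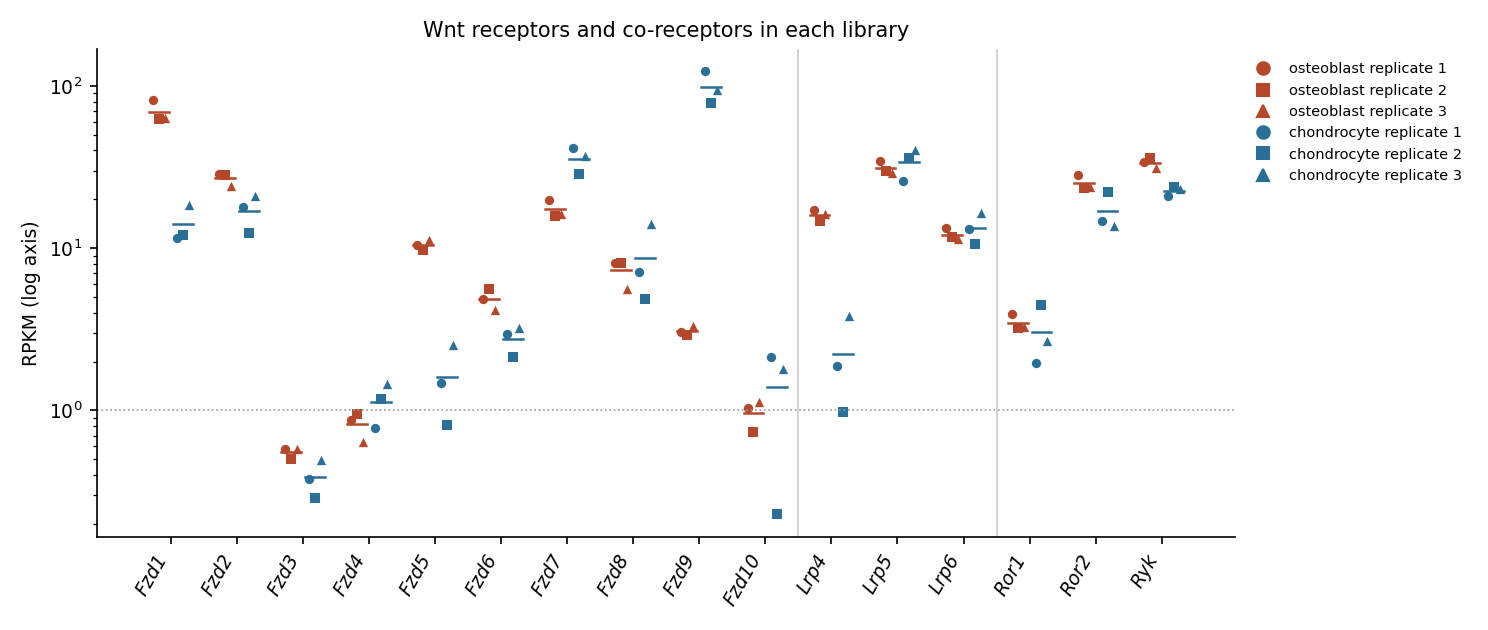
RPKM on a log axis of the 16 Wnt receptors and co-receptors in each library, with a marker shape per replicate and a short line at the group mean. The dotted line is 1 RPKM. Fzd9 separates the groups in one direction (78.3 to 123 RPKM in chondrocytes) and Fzd1, Fzd5 and Lrp4 in the other, while Lrp5 and Lrp6 overlap.

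The promoters of the 4 Frizzled genes that differed under each scaling, and of the feedback gene Axin2, are shown because these members differed by cell type in opposite directions, and were picked after their values were seen. Each is the run of 250 bases before the transcription start in the RefSeq table of build GRCm38.p6, while the submitters' processing notes name mm9. Capitals mark matches on either strand to the GC box GGGCGG, a motif of Sp family factors, or to the TCF/LEF core CTTTGA, and neighbouring copies can overlap. Fzd1 lies at chr5:4758217-4758466, reverse strand, Fzd5 at chr1:64737751-64738000, reverse strand, Fzd7 at chr1:59481897-59482146, forward strand, Fzd9 at chr5:135251048-135251297, reverse strand, and Axin2 at chr11:108920099-108920348, forward strand.
Fzd1: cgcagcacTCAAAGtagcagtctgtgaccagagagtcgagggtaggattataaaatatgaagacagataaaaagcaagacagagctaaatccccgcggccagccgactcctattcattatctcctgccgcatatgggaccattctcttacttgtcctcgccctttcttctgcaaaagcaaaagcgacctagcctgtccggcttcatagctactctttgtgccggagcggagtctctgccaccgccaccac
Fzd5: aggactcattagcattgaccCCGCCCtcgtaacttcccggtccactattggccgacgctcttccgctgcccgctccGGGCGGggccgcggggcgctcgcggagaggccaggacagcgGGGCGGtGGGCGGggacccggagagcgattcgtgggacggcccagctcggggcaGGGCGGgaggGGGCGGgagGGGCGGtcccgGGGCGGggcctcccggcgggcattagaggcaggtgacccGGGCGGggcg
Fzd7: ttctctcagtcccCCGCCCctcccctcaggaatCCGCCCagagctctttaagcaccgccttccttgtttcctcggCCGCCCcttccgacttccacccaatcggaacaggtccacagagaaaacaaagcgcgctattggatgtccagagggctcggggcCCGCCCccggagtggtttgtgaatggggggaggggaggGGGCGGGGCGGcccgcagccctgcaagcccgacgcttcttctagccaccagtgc
Fzd9: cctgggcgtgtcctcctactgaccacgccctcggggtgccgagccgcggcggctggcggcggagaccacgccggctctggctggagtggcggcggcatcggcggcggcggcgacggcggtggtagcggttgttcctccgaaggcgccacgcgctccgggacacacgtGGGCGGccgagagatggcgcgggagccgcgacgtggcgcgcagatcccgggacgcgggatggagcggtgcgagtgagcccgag
Axin2: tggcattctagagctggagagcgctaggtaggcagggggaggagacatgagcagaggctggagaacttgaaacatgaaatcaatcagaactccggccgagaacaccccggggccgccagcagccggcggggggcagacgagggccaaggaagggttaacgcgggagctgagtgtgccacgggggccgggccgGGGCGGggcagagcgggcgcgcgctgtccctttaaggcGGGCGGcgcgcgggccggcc
The Fzd5 run holds 9 GC boxes, Fzd7 holds 6, Axin2 holds 2 and Fzd9 holds 1, while Fzd1 holds none and has 1 TCF/LEF core. High GC box counts thus occur in a gene higher in osteoblasts and in one higher in chondrocytes. Of the 38 members 23 have an entry in the table. They have 30 windows in all, of which 2 of Lef1 and 2 of Ctnnb1 overlap and share GC boxes. GC boxes were found in 21 of the 30 windows, those of 17 genes, and in 32.7% of all 32851 promoter windows of that length. The windows were not matched for GC content, so these shares are not a measure of enrichment. The TCF/LEF core was found in 3 of the 30 (Fzd1, Lef1 and Ror1), and in 13.8% of all windows. Also searched on both strands were CTTTGAT, which contains the core (0 of the 30, 3.21% of all windows), CTTTGTT (2 of the 30, 5.03%), TAATTA (0 of the 30, 4.84%) and TAATT, which TAATTA contains (3 of the 30, 25.0%). A match is a string of letters and not evidence of binding.

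Among the co-receptors Lrp4 was called under each scaling, while the canonical pair was not called as deposited. Lrp4, which binds the antagonists sclerostin and Dkk1, was at 17.2, 14.6 and 16.2 RPKM in osteoblasts and 1.87, 0.976 and 3.82 RPKM in chondrocytes. All osteoblast libraries were high and the groups lay well apart (2.50 ± 0.29 SE, 7.21-fold, limma adjusted p = 0.000275). The highest chondrocyte library was again replicate 3, and without it the difference was 2.83. Lrp5, the co-receptor whose mutations alter human bone mass, was at 34.4, 30.0 and 29.1 RPKM against 25.9, 35.7 and 40.2 RPKM. Lrp6 was at 13.2, 11.7 and 11.4 RPKM against 13.2, 10.5 and 16.4 RPKM. Both overlapped and were not called as deposited (-0.10 ± 0.17 SE and -0.11 ± 0.16 SE, limma adjusted p = 0.604 and 0.535). Under each of the 4 scalings both were called higher in chondrocytes, by -0.60 and -0.59 after median-of-ratios scaling.

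The receptors of the branches without beta-catenin differed little. Ryk, a receptor with an inactive kinase domain, was at 34.2, 35.9 and 31.1 RPKM against 21.1, 23.7 and 23.1 RPKM (0.55, limma adjusted p = 0.00192). Ror2, the Wnt5a receptor needed for skeletal growth, was at 28.4, 23.7 and 23.9 RPKM against 14.7, 22.3 and 13.7 RPKM (0.58, limma adjusted p = 0.0230). Neither gene overlapped between groups and both were called, but neither was called under any other scaling. The Ror2 call was also lost without osteoblast replicate 1 or 3 (adjusted p 0.0852 and 0.0508) or chondrocyte replicate 1 or 3 (0.0761 and 0.0558). Ror1 was at 3.93, 3.20 and 3.26 RPKM against 1.97, 4.47 and 2.66 RPKM. It overlapped and was not called (limma adjusted p = 0.460), though without chondrocyte replicate 2 it was called higher in osteoblasts (0.43, adjusted p = 0.0146).

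In the R-spondin system the ligand Rspo3 and the receptor Lgr4 were both higher in chondrocytes. Rspo3 was at 3.05, 3.13 and 2.32 RPKM in osteoblasts and 6.09, 6.29 and 7.04 RPKM in chondrocytes. Lgr4, the most abundant Lgr receptor in each library, was at 8.46, 8.57 and 8.42 RPKM against 18.3, 21.2 and 14.8 RPKM. Neither gene overlapped between the groups. The differences were -0.97 for Rspo3 (2.28-fold, limma adjusted p = 0.000344) and -0.995 for Lgr4 (2.13-fold, limma adjusted p = 0.000450). Rspo1 went the other way, at 3.02, 3.13 and 2.24 RPKM against 2.24, 0.793 and 0.956 RPKM (0.75, limma adjusted p = 0.0215). Its lowest osteoblast library stood level with the highest chondrocyte library, and its call was lost under each of the 4 scalings. It was also lost without osteoblast replicate 1 or 2 (adjusted p 0.0701 and 0.0717) or chondrocyte replicate 2 or 3 (0.0535 and 0.0520).

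Rspo1 and Rspo3 were near equal parts of the R-spondin transcripts of osteoblasts, at 46.3% ± 0.353 and 47.0% ± 0.621 of the summed RPKM (SD, n = 3). In chondrocytes they held 16.4% ± 8.78 and 81.5% ± 8.31. The sum over Rspo1 to Rspo4 was 4.85 to 6.71 RPKM in osteoblasts and 7.16 to 8.44 RPKM in chondrocytes, without overlap (difference in log2 of the sum plus 1 -0.36, exact permutation test, two-sided, p = 0.1, the smallest possible). Rspo2 lay at 0.0800 to 0.423 RPKM and Rspo4 at or under 0.0625 RPKM in all libraries, and neither was tested. The sum over Lgr4, Lgr5 and Lgr6 was 11.9 to 13.1 RPKM in osteoblasts and 20.3 to 23.5 RPKM in chondrocytes (-0.74, exact permutation test, two-sided, p = 0.1). Under the 4 other scalings this difference was -1.22 to -1.13, and that of the Rspo1 to Rspo4 sum was -0.80 to -0.72.

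Lgr6, known as a marker of some epithelial stem cells, was at 4.02, 2.69 and 4.35 RPKM against 1.81, 1.87 and 3.26 RPKM. The groups overlapped through chondrocyte replicate 3 and the gene was not called (limma adjusted p = 0.0612). It was called higher in osteoblasts without that library (0.70, adjusted p = 0.00955) and without osteoblast replicate 2 (adjusted p = 0.0331). Lgr5, the intestinal stem cell receptor and itself a Wnt target, was at 0.324, 0.635 and 0.306 RPKM against 1.18, 0.479 and 2.27 RPKM, overlapped and missed the filter. Of the ligases, Znrf3 was at 2.69, 2.40 and 2.90 RPKM against 2.46, 1.48 and 2.32 RPKM and was not called (limma adjusted p = 0.157). Rnf43 was at 0.481, 0.495 and 0.695 RPKM in osteoblasts, while 2 chondrocyte libraries listed it at the floor of 0.0001 RPKM and replicate 3 at 0.00655 RPKM. It missed the filter, and with no filter it was called higher in osteoblasts (0.63, limma adjusted p = 0.000335, where 41.5% of 18091 genes were called on that side, 10.8% on the other and 52.3% in all). In bulk libraries fewer cells of a type and less RNA per cell cannot be told apart.

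Both genes of ligand secretion were higher in osteoblasts. Porcn, the acyltransferase that adds the lipid every secreted Wnt needs, was at 10.2, 9.85 and 11.4 RPKM against 2.37, 1.89 and 2.65 RPKM. Wls, the carrier that takes lipidated Wnts to the surface, was at 56.1, 58.4 and 55.0 RPKM against 27.3, 19.4 and 28.0 RPKM. The groups were far apart in both, with differences of 1.80 (4.55-fold, limma adjusted p = 2.02e-05) and 1.17 (2.27-fold, limma adjusted p = 0.000359). Both calls held under each scaling and without any single library.

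**Figure D4:**
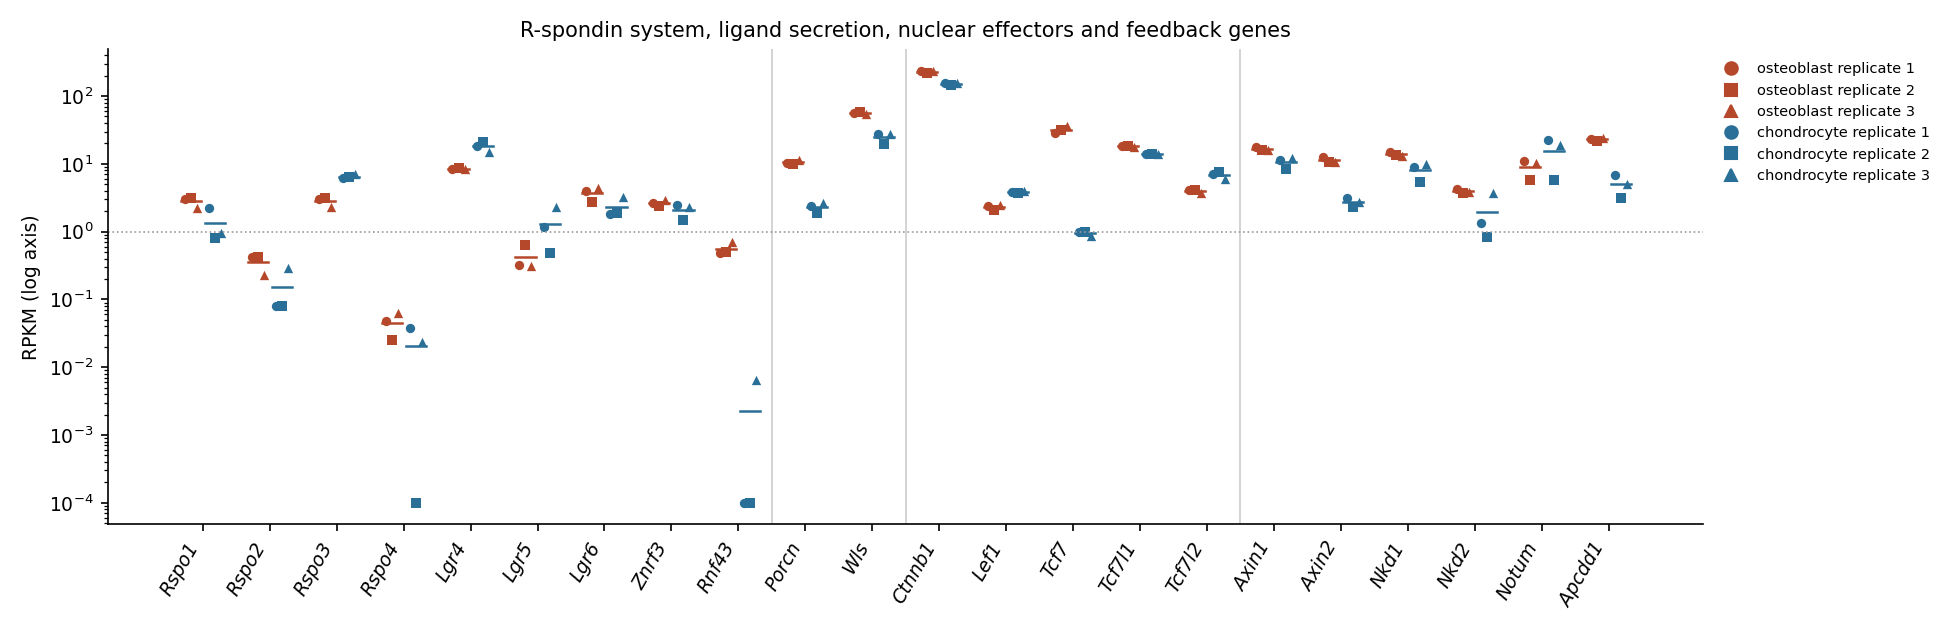
RPKM on a log axis of the R-spondin system, ligand secretion, nuclear effector and feedback genes in each library, with a marker shape per replicate and a short line at the group mean. The dotted line is 1 RPKM and the lowest points are at the table's floor of 0.0001 RPKM. Tcf7, Porcn, Axin2 and Apcdd1 lie higher in all 3 osteoblast libraries, and Rspo3, Lgr4, Lef1 and Tcf7l2 in all 3 chondrocyte libraries.

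Among the nuclear factors Tcf7 was far higher in osteoblasts, while Lef1 and Tcf7l2 were higher in chondrocytes. Tcf7, the gene of TCF1, was at 28.5, 31.9 and 35.7 RPKM in osteoblasts and 0.989, 0.987 and 0.863 RPKM in chondrocytes. Every osteoblast library was high (4.08 ± 0.11 SE, limma adjusted p = 5.30e-07). Tcf7 was the one member that passed the filter through one group alone, which fixes its direction. Lef1, the factor known for its role in hair, teeth and lymphocytes, was at 2.39, 2.11 and 2.51 RPKM against 3.81, 3.73 and 3.96 RPKM. Tcf7l2, the gene of TCF4, was at 4.12, 4.09 and 3.68 RPKM against 7.01, 7.46 and 6.01 RPKM. Both were higher in each chondrocyte library than in any osteoblast library (-0.54 and -0.65, limma adjusted p = 0.00207 and 0.00133).

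Tcf7l1, the gene of TCF3, which mostly represses targets, had the smallest difference of the family as deposited. It stood at 18.6, 18.7 and 17.9 RPKM against 14.2, 14.1 and 14.2 RPKM (0.36, 1.30-fold, limma adjusted p = 0.00606). This call was lost under each of the 4 scalings, where the sign turned (-0.13 to -0.036). As shares of the family, Tcf7 held 56.4% ± 3.27 in osteoblasts and 3.67% ± 0.190 in chondrocytes, and Tcf7l1 held 32.5% ± 2.40 and 54.9% ± 1.56 (SD, n = 3 each). The log2 ratio of Tcf7 to Lef1, each plus 1, compares both genes within a library. It was 3.12, 3.40 and 3.39 in osteoblasts and -1.27, -1.25 and -1.41 in chondrocytes, a difference of 4.62 (exact permutation test, two-sided, p = 0.1, the smallest possible). The summed TCF/LEF level was 56.7 ± 3.06 RPKM in osteoblasts and 25.7 ± 0.665 RPKM in chondrocytes.

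Ctnnb1, the gene of beta-catenin, was the most abundant member in each library. It was at 232, 220 and 236 RPKM against 156, 145 and 155 RPKM (0.59, 1.51-fold, limma adjusted p = 0.00150). The groups did not overlap, and the difference was close to the median of all genes. It was called under 1 of the 4 scalings and was 0.08 after median-of-ratios scaling. Beta-catenin is regulated mostly as a protein, which these data do not measure.

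Of the 6 genes of the feedback list, which includes the scaffold Axin1, 5 were called higher in osteoblasts. Of these, 2 were called on that side under each scaling, Axin2 and Apcdd1. Over all tested genes 55.5% were called on that side as deposited and 30.4% under median-of-ratios scaling. Axin2, the scaffold protein widely used as a readout of canonical Wnt signalling, was at 12.7, 10.6 and 10.8 RPKM against 3.10, 2.29 and 2.74 RPKM. Its groups lay far apart (1.74 ± 0.12 SE, 4.19-fold, limma adjusted p = 2.56e-05). Apcdd1, a membrane protein that binds Wnt and Lrp5, was at 23.5, 21.9 and 23.7 RPKM against 6.77, 3.17 and 5.05 RPKM (2.05, 4.61-fold, limma adjusted p = 0.000142). Its osteoblast libraries were close together and all high.

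The others changed less. Axin1, the constitutive scaffold that is not itself a target, was at 17.9, 15.9 and 15.9 RPKM against 11.5, 8.37 and 12.2 RPKM (0.60, limma adjusted p = 0.00740). Nkd1, which binds Dishevelled, was at 15.01, 13.4 and 13.2 RPKM against 8.86, 5.39 and 9.85 RPKM (0.75, limma adjusted p = 0.0105). Neither overlapped between groups, and neither was called under any other scaling. Its relative Nkd2 was at 4.26, 3.69 and 3.79 RPKM against 1.33, 0.820 and 3.76 RPKM (0.85, limma adjusted p = 0.0481). Chondrocyte replicate 3 reached the osteoblast range. The call was lost under each of the 4 scalings, with no filter (adjusted p = 0.0790), and without any library but that one (adjusted p 0.0950 to 0.142 without each of the other 5), and without replicate 3 the difference was 1.25. Notum, a secreted esterase that strips the lipid from Wnts, was at 10.9, 5.80 and 10.1 RPKM against 22.5, 5.73 and 18.9 RPKM. Osteoblast replicate 2 and chondrocyte replicate 2 were both low, the groups overlapped and the gene was not called (-0.60, limma adjusted p = 0.280). Without chondrocyte replicate 2 it was called higher in chondrocytes (-1.16, adjusted p = 0.00895).

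Of the 59 member transcripts 41 were tested on their own, of which 20 were higher in osteoblasts and 8 in chondrocytes (limma, Benjamini-Hochberg over 13162 transcripts, of which 52.2% and 13.1% were called, 65.3% in all). Of 8 genes with more than 1 tested transcript, 3 (Fzd5, Ryk and Tcf7l2) had all of them called one way. The other 5 (Axin1, Ctnnb1, Fzd6, Tcf7l1 and Wls) had 1 called higher in osteoblasts and 1 not called, and the difference between such transcripts was not tested. The Ctnnb1 transcripts differed between cell types by 0.63 and 0.11 (limma adjusted p = 0.00125 and 0.751). The 3 tested transcripts of Tcf7l2 were each higher in chondrocytes, with group means of 1.61, 1.95 and 2.00 RPKM there against 0.711, 1.17 and 0.920 RPKM. The table lists 1 Tcf7 transcript, so short forms of TCF1 that lack the beta-catenin binding region cannot be told from the long one. The main Lef1 transcript held 88.0% ± 6.28 of Lef1 in chondrocytes (SD, n = 3).

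Other genes of the pathway gave the surroundings of these changes. Of 18 tested genes of the destruction complex and Dishevelled group 14 were higher in osteoblasts, 0 in chondrocytes and 4 were not called, with a median of 0.48 against 0.43 for all genes. The shares over all tested genes, 55.5% higher in osteoblasts and 13.5% in chondrocytes, are the background for each list here. This list had 77.8% and 0%, and 1 of its 14 (Frat2) passed the filter through osteoblasts alone, which fixes the direction. Dvl3 (25.9 against 11.9 RPKM, 1.09) and Csnk1d (37.9 against 18.3 RPKM, 1.02) led. Under median-of-ratios scaling the group counted 4 higher in osteoblasts (Dvl1, Dvl3, Csnk1d and Csnk1e) and 5 higher in chondrocytes (Dvl2, Csnk1a1, Btrc, Fbxw11 and Tnks). Over all tested genes this scaling called 30.4% and 31.0%, the background for the scaled counts. Of 18 nuclear cofactors and corepressors 11 were higher in osteoblasts (61.1%) and 2 in chondrocytes (11.1%). Aes, a short Groucho-related protein, was at 98.7 against 23.4 RPKM (2.16) and the Groucho corepressor Tle2 at 18.2 against 4.77 RPKM (1.75). On the chondrocyte side were Tle1, at 6.25 against 20.1 RPKM (-1.54), and the acetyltransferase Crebbp (-0.39). Median-of-ratios scaling left 9 and 6.

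Of 13 tested planar polarity genes, which orient cells within a tissue, 8 were higher in osteoblasts (61.5%, against 55.5% of all genes) and 3 in chondrocytes (23.1%, against 13.5%). Under median-of-ratios scaling 3 were called on each side, where 30.4% and 31.0% of all genes were called. Of the 8, Ankrd6 and Intu passed the filter through osteoblasts alone, so their direction was fixed. Ankrd6 was at 6.18 against 0.0847 RPKM (2.73) and Ptk7, a receptor-like pseudokinase, at 101 against 24.2 RPKM (2.02). Prickle1, a cytoplasmic polarity protein, was at 3.97 against 25.5 RPKM and so higher in chondrocytes (-2.41), beside the formin Daam1 (-0.59) and Fuz (-0.41). Of 11 tested genes listed as modifying the receptors 6 were higher in osteoblasts (54.5%, against 55.5% of all genes) and 3 in chondrocytes (27.3%, against 13.5%). After that scaling the counts were 5 and 3. Kremen1, a receptor for the antagonist Dkk1, was at 65.2 against 5.67 RPKM (3.32) and Shisa3, of a family that holds Frizzled in the endoplasmic reticulum, at 5.21 against 0.201 RPKM (2.36). Shisa3 passed the filter through osteoblasts alone, which fixes its direction. The 3 on the chondrocyte side were Shisa2 (-0.75), Usp6nl (-0.63), a regulator of the small GTPase Rab5, and Tmem67 (-0.60).

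Of 10 tested further genes often given as Wnt targets 5 were higher in osteoblasts (50%, against 55.5% of all genes) and 2 in chondrocytes (20%, against 13.5%). The median was 1.14 against 0.43 for all genes, and 0.64 against 0.01 under median-of-ratios scaling. That scaling called 5 and 3, against 30.4% and 31.0% of all genes. The receptor Tnfrsf19 was at 105 ± 2.70 against 2.67 ± 1.46 RPKM, a difference of 4.94 (SD, n = 3 each), and Cd44, the hyaluronan receptor, at 51.6 against 2.49 RPKM (3.97). Ccnd1, Dkk1 and Twist1 were the other 3, of which Dkk1 passed the filter through osteoblasts alone, so its direction was fixed. Fgf18 was at 2.99 against 9.79 RPKM (-1.40) and Tnfrsf11b, the gene of osteoprotegerin, at 7.51 against 14.9 RPKM (-0.90). Many of these genes have other regulators. Myc, Jun and Bambi were not called as deposited, and after median-of-ratios scaling Bambi was called higher in chondrocytes (-0.64, limma adjusted p = 0.00104). The 4 genes that missed the filter were Sp5, Gbx2, Fosl1 and Mitf, of which Sp5, a direct target in many embryonic tissues, was near the floor in both cell types.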

How the data were processed

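RNA was sequenced from 3 osteoblast and 3 chondrocyte libraries made with an Illumina kit, per the labels' protocols. The authors deposited RPKM values for each RefSeq transcript, with reads mapped by TopHat2 2.0.8 to mm9 per the submitters' processing notes. The counting tool, its use of strand and how it shared reads between transcripts are not given in the sources used here, so levels of overlapping transcripts and of genes with antisense partners are uncertain. Depth was estimated from the steps of low RPKM values, where 1 RPKM in a transcript of 2 kb stood for 53.8 to 71.7 reads. With totals fitted to those same values, 62.5% to 63.6% of them lay within 0.05 of a whole read (10% without steps), too few to use as counts.

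Transcripts of a symbol were summed. Genes reaching 1 RPKM in at least 3 libraries were tested on log2(RPKM + 1) with limma (version 3.58.1, R 4.3.3), using a trend and robust moderation, and p-values were adjusted by Benjamini-Hochberg over 11218 genes with a threshold of 0.05. Sums and ratios of members were compared by exact permutation tests in scipy 1.17.1. The limma step was checked on simulated data. Alternatives covered the pseudocount, the filter, 4 scalings (median-of-ratios, upper quartile, quantile, and the total without the 50 most abundant genes), moderation, a replicate block, library weights, the collapse of transcripts and each library left out. When a library was left out, the filter was first reapplied to the 5 remaining; it was changed to use all 6 after those results were seen, because the first form dropped Tcf7 from testing, and both are given. The members and lists were chosen with earlier results of these data known. All members were to be described, with values in every library where a group mean reached 1 RPKM, and 2 genes in each direction of every other list. Any further gene on one side, and genes listed for a scaling, were named after their values were seen.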

Additional observations from a re-analysis of the deposited data

How the results depend on the processing

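The scaling of the libraries mattered most. Of the members, 8, 8, 9 and 9 were called higher in osteoblasts under median-of-ratios, upper-quartile and quantile scaling and the total without the 50 most abundant genes, against 18 as deposited. Over all genes these scalings called 3405, 3706, 3597 and 3904 higher in osteoblasts (6224 as deposited) and 3478, 3184, 3456 and 3009 higher in chondrocytes (1512 as deposited). A filter on a mean of at least 5 RPKM, which tests fewer genes, called 4092 and 885.

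In the same order of scalings the difference turned sign for Ror1 (-0.20, -0.16, -0.22 and -0.13), Znrf3 (-0.093, -0.053, -0.13 and -0.028) and Tcf7l1 (-0.13, -0.071, -0.074 and -0.036). With each library left out in turn, differences that were not called with all 6 libraries and turned sign ranged from -0.43 to 0.25 for Fzd8 (0.032 without osteoblast replicate 3, 0.25 without chondrocyte replicate 3), from -0.60 to 0.078 for Fzd10 (0.078 without chondrocyte replicate 1), from -0.28 to 0.028 for Lrp5 and from -0.26 to 0.034 for Lrp6 (the highest without chondrocyte replicate 3), and from -0.0081 to 0.43 for Ror1 (-0.0081 without chondrocyte replicate 1). Lrp5 also turned with library weights (0.18). The cause was not tested.

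With each library left out in turn, 14 to 17 members were called higher in osteoblasts and 6 to 8 in chondrocytes, and over all genes 5300 to 6319 and 1206 to 1898. Member transcripts called were 14 to 21 and 6 to 9. The difference ranged from 4.57 to 4.71 for the Tcf7 to Lef1 ratio, from -0.51 to -0.23 for the summed Frizzled level, from -0.78 to -0.68 for Lgr4 to Lgr6 and from -0.43 to -0.23 for Rspo1 to Rspo4. With the filter reapplied to the 5 libraries left, an alternative that was the first form run and was replaced after its results were seen, the members counted 13 to 17 and 6 to 8, and 1003 genes were called higher in chondrocytes without chondrocyte replicate 1.

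Deviations of same-numbered libraries correlated at 0.079, 0.0096 and -0.155 across genes, which gave no sign of pairing by replicate number but cannot exclude it. With the replicate block 19 members were called higher in osteoblasts and 7 in chondrocytes, the 2 added being Lgr6 and Notum, and 5892 and 1376 genes over the whole table. Precision is limited by 3 libraries a group, and for members under 1 RPKM by few reads.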
